A study of Drosophila melanogaster and Drosophila simulans with 21 samples.

Results

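Proteasome subunit genes encode parts of the protease that degrades ubiquitin-tagged proteins in the cytoplasm and nucleus. Probe positions annotated to 5 of them (Prosbeta7, Rpt5, Rpn1, Rpn2 and Rpn6) were taken from the deposited ratios by gene symbol, with 1 position per gene. The 5 genes were among 4753 tested genes and positions, of which 1384 were named genes, and each had a value on all 18 arrays that compared 2 RNAs. No measured value was used to choose them, although results of these arrays were known when they were chosen.

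The arrays held spotted cDNA and hybridised 2 labelled cDNAs at once. RNA came from whole adult hybrid females (daughters of Canton S mothers of Drosophila melanogaster and Sim-1 fathers of Drosophila simulans), from virgin females of D. simulans Sim-1 and from virgin females of D. melanogaster Canton S. All groups share stocks raised at 25 C, crosses of 7 to 8 flies per sex at 18 C, storage for 5 to 6 days at room temperature and freezing in the same 2 hours of the day. Each cross gave 2 cohorts, whose extractions were mixed into 1 RNA pool per strain. For each pair of pools there were 6 arrays, with the channels swapped on 3 of them. Another 3 arrays carried 1 RNA in both channels.

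The arrays are technical repeats of 3 pools: p-values cover array-to-array spread alone, and a difference between strains cannot be told apart from a difference between pools. Every array had values at 4657 to 4946 positions. In RNA of whole bodies, fewer cells of a type and less RNA per cell cannot be told apart. Whether the probes bind cDNA of both species equally well was not tested.

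Which channel forms the numerator of the deposited ratio is not given by the labels. Between arrays of 1 pair with swapped channels, log2 ratios correlated from -0.93 to -0.46 over positions (27 array pairs, a description over positions that share arrays), so the ratio follows the channels. The relative direction of the 3 comparisons was fixed by the loop they form. Hybrid minus D. melanogaster, less hybrid minus D. simulans and less D. simulans minus D. melanogaster, had an SD of 0.19 over genes, against 0.87 with the parental comparison turned. The overall sign stayed unknown. Signs are given with channel 1 over channel 2. An earlier analysis of these arrays adopted this reading after values were seen, since germline genes then lie lower in the hybrid and most of the largest parental ratios lie lower in D. simulans. In the other reading every fall is a rise, while sizes, p-values and the groupings of the genes stay as given.

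The proteasome has a barrel-shaped core particle, whose beta subunits line the proteolytic chamber, and a regulatory particle that binds ubiquitin chains, unfolds substrates and feeds them into the core. The regulatory particle has a base, with a ring of ATPases and large scaffold subunits, and a lid, with a deubiquitinase and its structural partners. Subunits are needed in fixed proportions, and their genes are known in flies and mammals to be induced together when proteasome activity is inhibited. Cyclins and other cell cycle proteins are degraded by it in dividing cells, those of the ovary included.

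Prosbeta7 (CG12000, chromosome arm 3R) encodes a beta subunit of the core. Rpt5 (CG10370, 3R) encodes an ATPase of the base. Rpn1 (CG7762, 3L) and Rpn2 (CG11888, 3R) encode the large base scaffolds, of which Rpn1 also binds ubiquitin receptors and ubiquitin-like domains. Rpn6 (CG10149, 2R) encodes a lid subunit that helps to clamp the lid to the core. Symbols, locus tags and arms are from RefSeq's table for the assembly named Release 6 plus ISO1 MT, and the files themselves give no coordinates or genome build.

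In the adopted reading the 5 genes fell into 3 patterns. Rpt5, Rpn1 and Rpn2, all of the base, were lower in the hybrid than in both parents, by 1.49- to 1.78-fold, while no difference between the parents was called. Prosbeta7 was lower in the hybrid and in D. simulans than in D. melanogaster, by 1.76-fold and 1.56-fold. No difference was called for Rpn6 in any of the 3 comparisons. Fold changes compare RNA pools after each array's median was set to 0 on the log2 scale.

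Rpt5 was the gene with the largest fitted difference from D. melanogaster among the 3 base genes. On the 6 arrays of hybrid and D. melanogaster RNA, its log2 ratio of hybrid over D. melanogaster was -0.60, -0.89, -0.72, -0.94, -0.80 and -0.99. All 6 values were well below the 3 arrays with a single RNA in both channels, on which Rpt5 read 0.07 (hybrid), 0.10 (D. simulans) and -0.01 (D. melanogaster). Against D. simulans the hybrid read -0.82, -0.98, 0.03, -0.71, -0.72 and -0.75. Of these arrays, 5 lay close together and the one at 0.03 lay apart. Between D. simulans and D. melanogaster the 6 values ran from -0.25 to 0.29 around a median of -0.05, on both sides of 0.

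In the fit to all 18 arrays, Rpt5 was lower in the hybrid than in D. melanogaster by a log2 difference of -0.78 ± 0.079 (SE; limma adjusted p = 1.75e-08). It was lower than in D. simulans by -0.71 ± 0.079 (adjusted p = 7.88e-08). The parents differed by -0.072, with a 95% interval of -0.24 to 0.094 (adjusted p = 0.473). Without the array at 0.03, the difference from D. simulans was -0.79. With arrays scaled to a common spread, the hybrid differences were -0.57 from D. melanogaster and -0.50 from D. simulans, both still called. Such scaling enlarges ratios on arrays of narrow spread and shrinks those on arrays of wide spread. The SD of log2 ratios was 0.43 to 0.76 on the parental arrays and 0.90 to 1.25 on those with hybrid RNA.

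Rpn1 showed the largest difference from D. simulans among the 5 genes. Hybrid over D. simulans read -0.99, -0.94, -1.25, -0.87, -0.73 and -0.60, all below 0. Hybrid over D. melanogaster read -0.17, -0.69, -0.68, -0.67, -0.72 and -0.58. In that pair 5 arrays lay between -0.72 and -0.58 and the first lay apart, although it too was below 0. The single-RNA arrays read -0.03 (hybrid), 0.01 (D. simulans) and 0.19 (D. melanogaster).

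The fitted difference for Rpn1 was -0.65 ± 0.079 for hybrid minus D. melanogaster (SE; adjusted p = 2.38e-07) and -0.83 ± 0.079 for hybrid minus D. simulans (adjusted p = 7.01e-09). Both depended in size on the scaling of arrays: they were -0.42 and -0.67, still called, when arrays were scaled to a common spread. Between the parents, D. simulans over D. melanogaster read 0.39, -0.26, 0.13, 0.20, -0.05 and 0.28, with 4 arrays above 0 and 2 below. The fit gave 0.18 ± 0.079 (95% interval 0.015 to 0.35, adjusted p = 0.0681). That value passed the threshold without the second array, whose log2 ratios had the widest SD in its pair at 0.763 (0.24 without it, adjusted p = 0.0140), with deposited medians (0.20, adjusted p = 0.0291) and with arrays scaled to a common spread (0.25, adjusted p = 0.0213). Relative to the median of all genes, it stood at 0.16 both in the main fit and with deposited medians.

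Rpn2, the other base scaffold, varied least between arrays against D. simulans. Hybrid over D. simulans read -0.85, -0.78, -0.81, -0.69, -0.65 and -0.75, a mean of -0.75 ± 0.076 (SD, n = 6). Hybrid over D. melanogaster read -0.35, -0.43, -0.57, -0.73, -0.51 and -0.39. Every value of both pairs was below 0 and below the single-RNA arrays, at -0.05 (hybrid), 0.12 (D. simulans) and 0.13 (D. melanogaster). The fitted differences were -0.57 ± 0.068 from D. melanogaster (SE; adjusted p = 1.72e-07) and -0.68 ± 0.068 from D. simulans (adjusted p = 1.47e-08). With arrays scaled to a common spread they were -0.39 and -0.54, both still called. D. simulans over D. melanogaster ran from -0.40 to 0.25 with a median of 0.15. The fitted parental difference was 0.11 (95% interval -0.035 to 0.25, adjusted p = 0.202), and it passed the threshold without the second array (0.18, adjusted p = 0.0102).

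**Figure D1:**
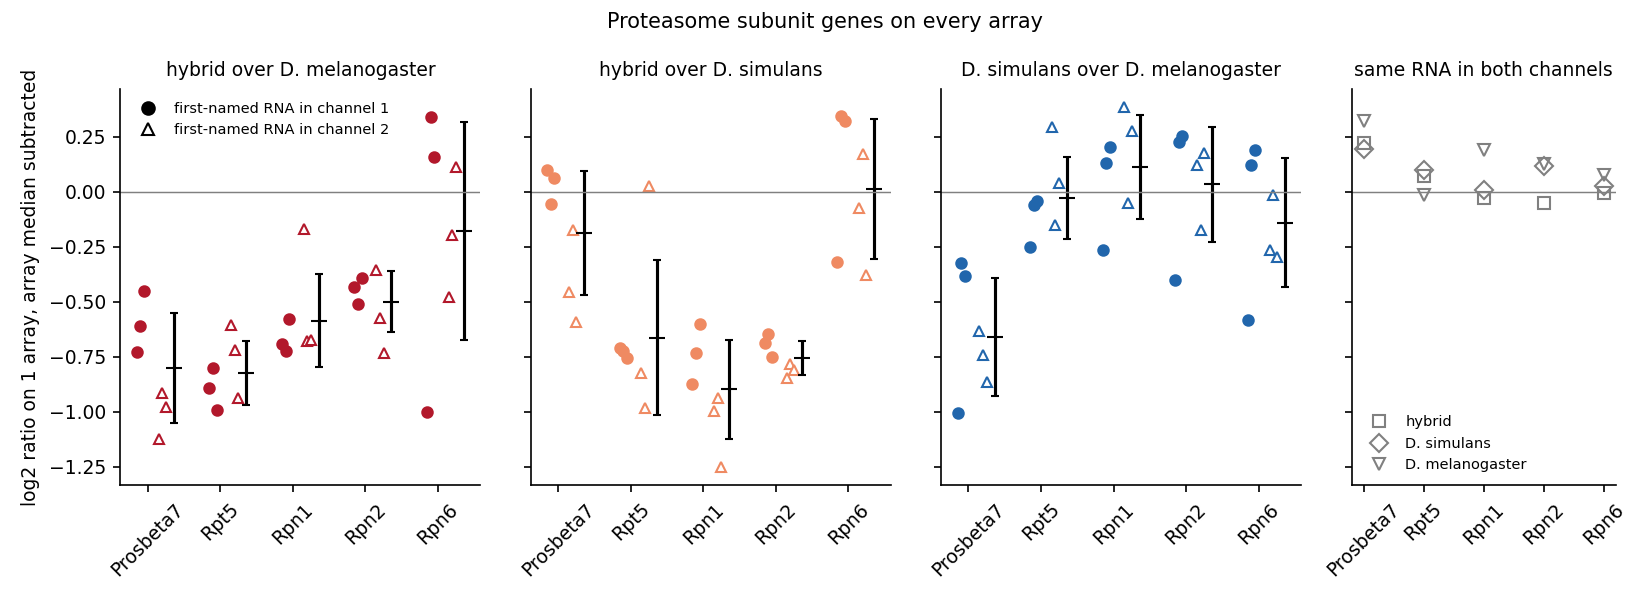
Each point is the log2 ratio of 1 gene on 1 array after subtraction of the array median, with channel 1 over channel 2 as the adopted reading. Filled circles and open triangles mark the channel of the first-named RNA, and bars give the mean ± SD of the 6 arrays. The points of Rpt5, Rpn1 and Rpn2 lie below 0 in both hybrid panels except for 1 Rpt5 array at 0.03, Prosbeta7 lies below 0 on every array that compares D. melanogaster with another RNA, and Rpn6 lies on both sides.

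Prosbeta7, the core subunit gene, separated D. melanogaster from the other pools. Hybrid over D. melanogaster read -1.12, -0.73, -0.91, -0.98, -0.61 and -0.45, and D. simulans over D. melanogaster read -0.63, -1.01, -0.32, -0.38, -0.74 and -0.86. Every value of both pairs was below 0. The direction between the parents is no independent evidence, since large parental ratios served to choose the sign. Hybrid over D. simulans read -0.45, -0.17, -0.59, 0.10, -0.06 and 0.06, with 4 arrays below 0 and 2 above. The fitted differences were -0.81 ± 0.068 for hybrid minus D. melanogaster (SE; adjusted p = 9.10e-10), -0.17 ± 0.068 for hybrid minus D. simulans (adjusted p = 0.0269) and -0.64 ± 0.068 for D. simulans minus D. melanogaster (adjusted p = 2.41e-07).

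The small difference of Prosbeta7 between hybrid and D. simulans moved with the channels. It averaged 0.036 ± 0.082 with the hybrid in channel 1 and -0.41 ± 0.21 with the hybrid in channel 2 (SD, n = 3 each). Hybrid over D. melanogaster moved too, at -0.60 ± 0.14 and -1.005 ± 0.11 in the same order. D. simulans over D. melanogaster averaged -0.57 ± 0.38 with D. simulans in channel 1 and -0.75 ± 0.12 with it in channel 2. The channel term of the fit was 0.17 ± 0.048 (SE) for this gene, larger in size than for all but 15.7% of genes and positions. On the single-RNA arrays Prosbeta7 read 0.22 (hybrid), 0.19 (D. simulans) and 0.32 (D. melanogaster), where equal RNA would give 0. For hybrid minus D. simulans, the adjusted p was 0.0760 without a channel term and 0.0753 on the direct arrays of the pair alone. With deposited medians the value was larger in size (-0.30, adjusted p = 0.000122), while the median of all genes moved to -0.10. Relative to the median of all genes it stood at -0.19 with and without the subtraction. With arrays scaled to a common spread, hybrid minus D. simulans was 0.11 on the other side of 0 (adjusted p = 0.359). That setting enlarges ratios on the narrower parental arrays. Within it, D. simulans minus D. melanogaster was -0.94 and hybrid minus D. melanogaster was -0.83. The call was also lost without array 1, 3 or 5 of the pair (values of -0.16, -0.14 and -0.16).

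**Figure D2:**
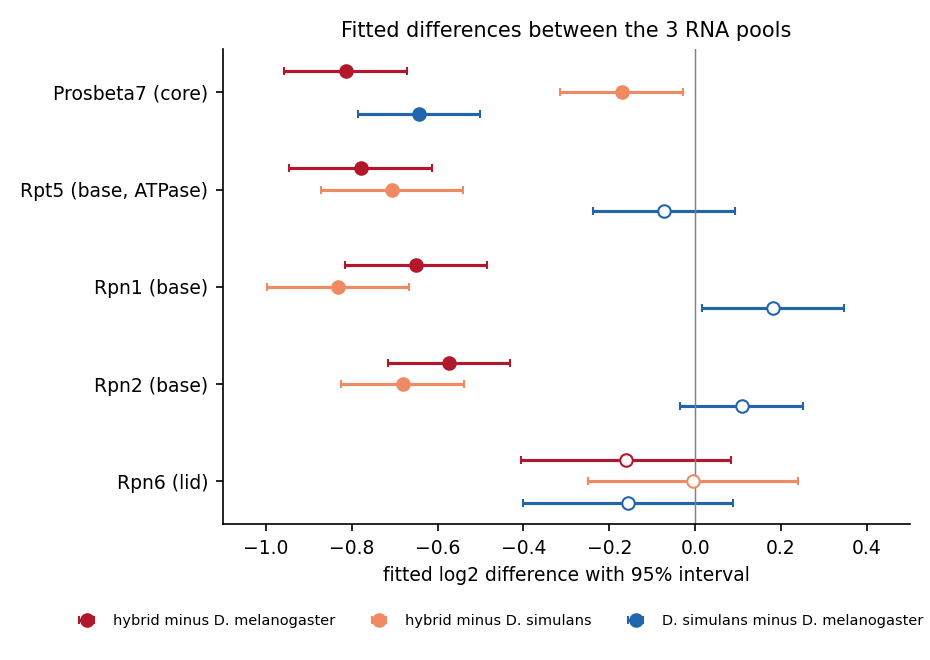
Fitted log2 differences with 95% intervals from 1 linear model of 18 arrays, in the adopted reading. Filled points passed an adjusted p of 0.05. The 3 base genes share intervals below 0 in both hybrid comparisons. Between the parents their points are open, and the interval of Rpn1 (0.015 to 0.35) lies above 0. The core gene Prosbeta7 has its smallest difference between hybrid and D. simulans (-0.17), and all 3 intervals of the lid gene Rpn6 include 0.

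Set in order, the fitted log2 level of Prosbeta7 was 0 in D. melanogaster, -0.64 in D. simulans and -0.81 in the hybrid. For this gene D. simulans and the hybrid were separated in the fit to all arrays and with deposited medians. They were not separated in the other settings just named. For Rpt5 the order was D. melanogaster at 0, D. simulans at -0.072 and the hybrid at -0.78. For Rpn1 and Rpn2, D. simulans stood at 0.18 and 0.11, D. melanogaster at 0 and the hybrid at -0.65 and -0.57. Neighbouring parental levels of Rpt5, Rpn1 and Rpn2 were not separated in the fit to all arrays. The 3 comparisons closed to a loop within 0.22 for each gene, with a remainder of 0.04 for Prosbeta7, -0.13 for Rpt5, 0.20 for Rpn1, 0.22 for Rpn2 and -0.05 for Rpn6, against the SD of 0.19 over all genes.

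Rpn6, the lid subunit gene, lay on both sides of 0 in each pair. Hybrid over D. melanogaster read -0.48, -1.0, -0.19, 0.11, 0.34 and 0.16, hence 3 arrays below 0 and 3 above. Hybrid over D. simulans read -0.07, 0.17, -0.38, -0.32, 0.35 and 0.32, again divided evenly. D. simulans over D. melanogaster read -0.26, -0.58, 0.12, 0.19, -0.01 and -0.29. The single-RNA arrays lay close to 0, at -0.01 (hybrid), 0.03 (D. simulans) and 0.08 (D. melanogaster).

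The fit gave Rpn6 a log2 difference of -0.16 (95% interval -0.41 to 0.084, adjusted p = 0.207) for hybrid minus D. melanogaster and -0.0042 (95% interval -0.25 to 0.24, adjusted p = 0.974) for hybrid minus D. simulans. For D. simulans minus D. melanogaster it was -0.16 (95% interval -0.40 to 0.089, adjusted p = 0.286). The residual SD of Rpn6 was 0.38, above that of 79.9% of genes and positions, against 0.19 to 0.24 for the other 4 genes. With deposited medians the first value was -0.27 (adjusted p = 0.0274), while the median of all genes moved to -0.083. Relative to that median Rpn6 stood at -0.18 with and without the subtraction.

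Between hybrid and D. melanogaster, the direction of Rpn6 followed the numbers in the array titles. The titles run from 1 to 8 and from 14 to 18, and the labels do not say what the numbers mark. The arrays of hybrid over D. melanogaster with title numbers 1 to 8 ran from -1.0 to -0.19, and those with 14 to 18 from 0.11 to 0.34, with no overlap. Fitted separately, hybrid minus D. melanogaster was -0.65 on low title numbers (adjusted p = 0.000242) and 0.21 on high ones (adjusted p = 0.00405). In 1 model of both sets the value on high title numbers was no longer called (adjusted p = 0.0606), and the difference between them was -0.85 ± 0.13 (SE; adjusted p = 0.000577, over all genes and positions). For this comparison 19.9% of genes and positions differed between the sets.

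In the other comparisons the difference of Rpn6 between low and high title numbers was -0.41 ± 0.13 for hybrid minus D. simulans (adjusted p = 0.101) and -0.45 ± 0.12 for D. simulans minus D. melanogaster (adjusted p = 0.0638). There, 1.89% and 2.10% of genes and positions differed. The values by set were -0.23 and 0.18 against D. simulans, and -0.42 and 0.029 between the parents. On high title numbers every direct array of hybrid and D. simulans had the hybrid in channel 1. The value of 0.18 therefore leans on the channel term and on the other pairs. No difference between the sets was called for the other 4 genes in any comparison (adjusted p from 0.382 to 0.969). Their hybrid values by set were alike in sign: -0.94 and -0.75 for Prosbeta7, -0.75 and -0.91 for Rpt5, -0.69 and -0.67 for Rpn1, and -0.60 and -0.65 for Rpn2, each against D. melanogaster.

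**Figure D3:**
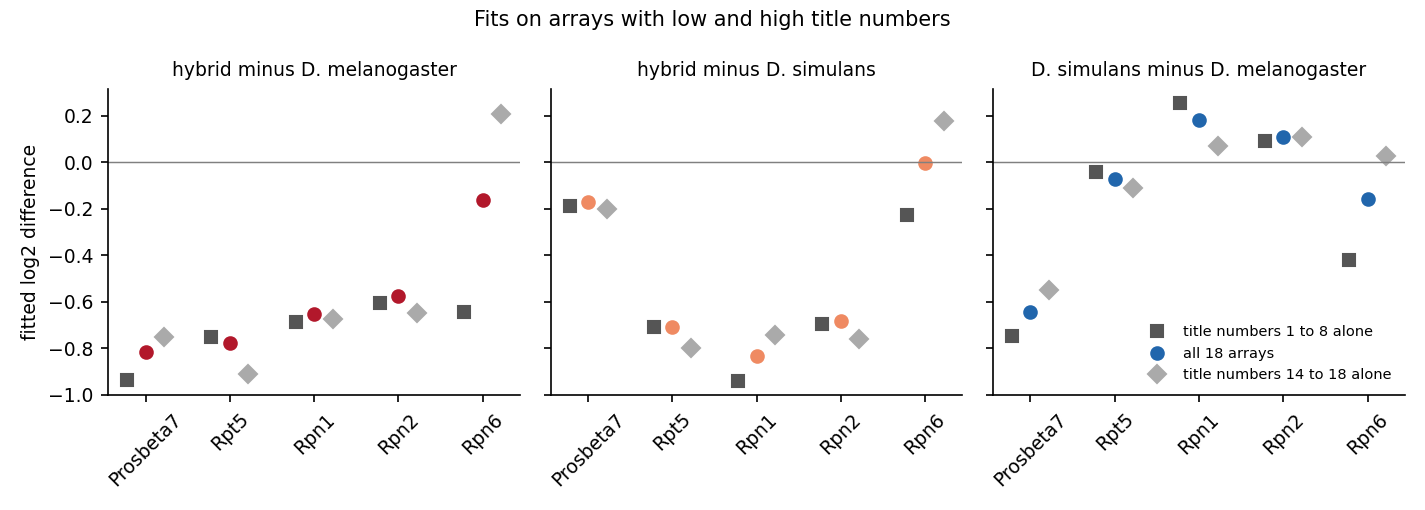
Fitted log2 differences of the 5 genes from arrays with title numbers 1 to 8 (dark squares), all 18 arrays (coloured circles) and title numbers 14 to 18 (light diamonds), in the adopted reading. Low and high title numbers give Rpn6 opposite signs in all 3 panels (-0.65 and 0.21 for hybrid minus D. melanogaster), and the other 4 genes keep 1 sign in every panel.

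Against the background of all genes, the share of subunit genes that differed in either direction was near that of all genes in both hybrid comparisons. Of the 5 genes, 4 were lower in the hybrid than in D. melanogaster and 0 higher, where 83.8% of all genes and positions differed, 41.8% lower and 42.0% higher. Against D. simulans, 4 were lower and 0 higher, where 82.2% differed, 40.8% lower and 41.5% higher. The same 4 genes were below both parents, as were 36.2% of all, and for Prosbeta7 this rests on the small difference from D. simulans described above. Between the parents 1 of 5 differed, Prosbeta7, where 46.8% of all did, 23.5% lower and 23.2% higher in D. simulans.

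The median log2 difference of the 5 genes was -0.65 for hybrid minus D. melanogaster, -0.68 for hybrid minus D. simulans and -0.072 between the parents. The median of all genes and positions was 0.02 in each. A larger difference than that of Prosbeta7 from D. melanogaster, in either direction, was found for 41.4% of genes and positions. For Rpn1 against D. simulans this share was 36.3%. The parental difference of Prosbeta7 was larger in relative terms, with 9.32% of genes and positions beyond it.

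**Figure D4:**
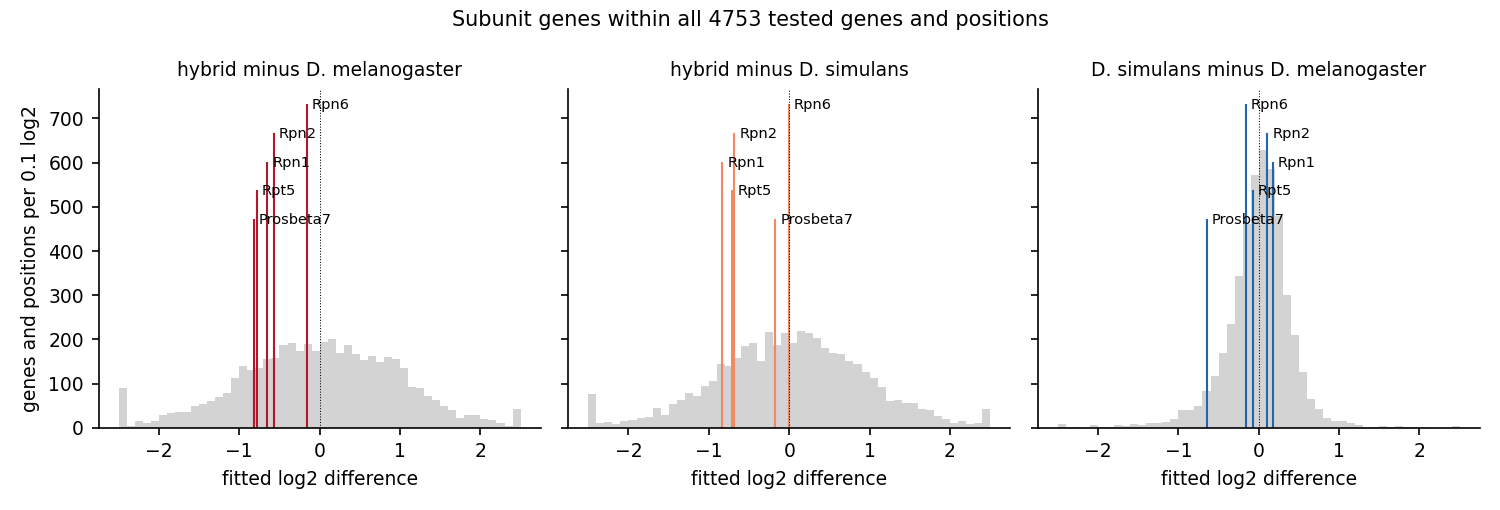
Grey histograms show the fitted log2 differences of all 4753 tested genes and positions in steps of 0.1 (values beyond 2.5 are drawn at the edge), and lines mark the 5 subunit genes at heights chosen for legibility. In the adopted reading, all 5 genes lie left of the centre against D. melanogaster within the broad distribution, with Rpn6 nearest to it (-0.16, not called). Prosbeta7 (-0.64) lies in the left flank of the narrower parental distribution.

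Differences between the subunit genes were read within arrays, without a test. On arrays of D. simulans and D. melanogaster, Prosbeta7 stood below Rpn1 on 6 of 6 arrays, by -0.77 ± 0.26 (SD), and below Rpn2, Rpn6 and Rpt5 on 6 of 6 arrays each. On arrays of hybrid and D. simulans it stood above Rpn1 on 6 of 6, by 0.71 ± 0.15, and above Rpn2 on 6 of 6, by 0.57 ± 0.23. Rpn1 and Rpn2 differed from each other by 0.08 ± 0.13 between the parents, by -0.09 ± 0.17 for hybrid over D. melanogaster and by -0.14 ± 0.19 for hybrid over D. simulans.

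The root mean square difference of log2 ratios over the 18 arrays was used as a measure of likeness among named genes, and it says nothing of shared control. Rpn2 was the second closest of 1376 named genes to Rpn1, at 0.19, and Rpn1 the fourth closest to Rpn2. Rpt5 ranked further off, at place 103 from Rpn1 and 87 from Rpn2. Every pairing that included Prosbeta7 or Rpn6 lay further off still, at places 216 to 720.

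The nearest gene to Rpn1 was Iru (0.16), a ubiquitin ligase gene, and the nearest to Rpn2 were lace (0.16), of sphingolipid synthesis, and Rad23 (0.17), which encodes a shuttle that carries ubiquitinated proteins to the proteasome. MED15, of the Mediator complex, and the transcriptional kinase gene Cdk12 were nearest to Rpt5 (0.17 and 0.21). Prosbeta7 was nearest to l(1)G0289 (0.20) and CG33144 (0.26), and Rpn6 to RhoBTB and Sh3beta (0.22 each). Nearest to the mean of the 5 genes were Rabex-5, CG8379, CG3909, Cdk12 and Sf3a2 (0.13 to 0.17), and with Pearson correlation as the measure 0 of these 5 were among the first 5.

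Of 46 other listed proteasome genes, 2 were tested under a symbol. Pomp, which encodes a chaperone of core particle assembly, was higher in the hybrid than in D. melanogaster by 0.53 ± 0.084 (SE; adjusted p = 8.49e-06) and lower than in D. simulans by -0.25 ± 0.084 (adjusted p = 0.0102). It was higher in D. simulans than in D. melanogaster by 0.78 ± 0.084 (adjusted p = 3.11e-07), the opposite direction to the core subunit gene Prosbeta7. Prosbeta4R2, a duplicate related to a core subunit gene, was higher in the hybrid by 0.94 ± 0.28 (adjusted p = 0.00470) and 0.65 ± 0.28 (adjusted p = 0.0399) against D. melanogaster and D. simulans, and its probe may also bind related copies. Between the parents it stood at 0.30 (adjusted p = 0.399). On title numbers 1 to 8 alone that value was called (0.74, adjusted p = 0.0167), and on 14 to 18 alone it was -0.054 and not called. Its call against D. simulans was lost with deposited medians (0.53), with common spread (0.49) and without a channel term. It was also lost on leaving out any 1 of 8 arrays: arrays 1, 3 and 4 of the parental pair, array 3 of hybrid and D. melanogaster, and arrays 1 to 4 of hybrid and D. simulans. Its call against D. melanogaster was lost with common spread (0.66) and on direct arrays (1.08). That value was 0.60, still called, without array 2 of hybrid and D. melanogaster. By title numbers, Prosbeta4R2 stood at 1.80 on 1 to 8 and 0.28 on 14 to 18 against D. melanogaster, and at 1.07 and 0.33 against D. simulans. Both values on 14 to 18 were called alone but not within 1 model of both sets (adjusted p = 0.308 and 0.263). On the direct arrays Pomp was not called against D. simulans (-0.25, adjusted p = 0.101). The other listed genes were not analysed here.

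Of 72 listed genes of the ubiquitin system, 16 were tested. In the hybrid 11 were lower, 2 higher and 3 not called against D. melanogaster, and the same numbers held against D. simulans. Of all genes and positions, 41.8% and 40.8% were lower, 42.0% and 41.5% higher, in these comparisons. The medians of the list were -0.55 and -0.77, against 0.02 over all. The largest falls relative to both parents were rdx, a substrate adaptor of a Cullin ligase (-2.61 and -2.64 against D. melanogaster and D. simulans), and APC7, part of the ligase that triggers anaphase (-2.91 and -1.93). Next came Uch-L5 (-1.98 and -1.31), a deubiquitinase that docks on the proteasome's regulatory particle, APC4 (-1.35 and -1.71), of the same ligase as APC7, and the ubiquitin hydrolase gene Uch (-1.45 and -1.33).

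Rad23, the shuttle gene close to Rpn2, stood at -0.58 against D. melanogaster and -0.81 against D. simulans (adjusted p = 3.51e-08 and 2.70e-10). The 2 higher genes, named after their values were seen, were Keap1 (1.04 and 0.47), whose product restrains the stress transcription factor Cnc, and Ubc6 (0.59 and 1.45), a ubiquitin-conjugating enzyme. With arrays scaled to a common spread, Ubc6 stood at 0.12 against D. melanogaster and Keap1 at 0.13 against D. simulans, neither of them called, and Ubc6 at 0.34 on title numbers 1 to 8 alone was not called either. Between the parents 3 of the 16 were lower and 5 higher in D. simulans, with a median of 0.01.

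**Figure D5:**
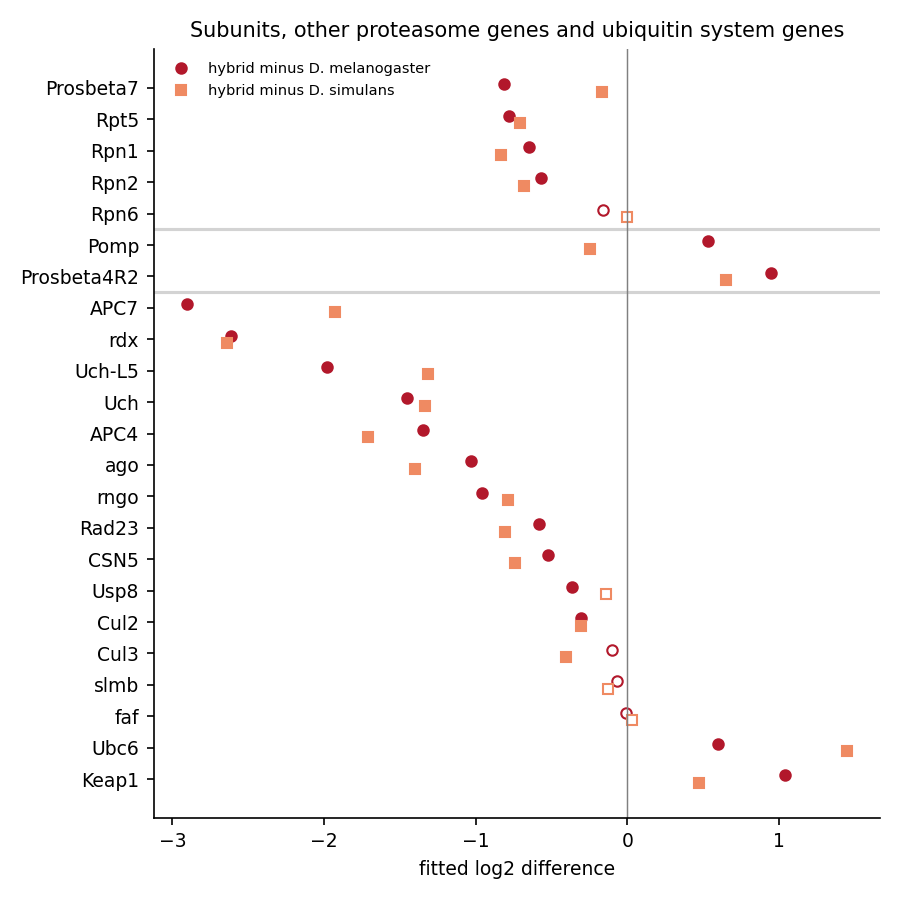
Fitted log2 differences of the hybrid from D. melanogaster (circles) and from D. simulans (squares) for the 5 subunit genes (top), 2 other proteasome genes (middle) and 16 ubiquitin system genes (bottom), in the adopted reading. Filled symbols passed an adjusted p of 0.05; Keap1 and Ubc6 lie right of 0 in both comparisons, while 11 ubiquitin system genes lie left of it as called differences in each.

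Markers of the ovary and fat body, both present in whole females, moved in the same hybrid comparisons. Of 57 listed germline and ovary genes 7 were tested. Against D. melanogaster 6 were lower in the hybrid and 1 was not called (median -1.58, from -4.66 for BigH1 to -0.0082 for ovo), where 41.8% of all were lower. Ovo took either sign near 0 with 1 array left out. On title numbers 1 to 8 alone it stood at -0.28 (limma adjusted p = 0.0474). On 14 to 18 alone it stood at 0.19 (adjusted p = 0.00103), which was not called within 1 model of both sets (adjusted p = 0.0786). Against D. simulans 4 were lower, 1 higher and 2 not called (median -0.54), and the 1 higher was lost without 13 of the 18 arrays, one at a time, and with deposited medians. Between the parents 4 were lower in D. simulans and 3 not called (median -0.42), where 23.5% of all were lower. Germline genes served in part to choose the sign, so their direction is no independent evidence. Of 26 listed fat body genes 7 were tested, with 7 higher against D. melanogaster (median 0.99) and 6 higher with 1 not called against D. simulans (median 1.56), where 42.0% and 41.5% of all were higher. Between the parents 3 were higher in D. simulans, 3 lower and 1 not called. Summed marker levels cannot be had from ratios. The part of germline and fat body content in the lower values of the base genes was not tested.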

How the data were processed

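The authors deposited 1 table of linear ratios of 2 channels, per probe position and array (21 arrays). The scanner and any background correction, normalization or spot filter were not given in the sources used here, which leaves signal over background unknown, and the number of arrays limits the precision. Median ratios per array ran from 0.852 to 1.11. Of 6101 positions, 1943 had 1 gene symbol in the platform annotation, 67 several and 4091 none; all 1943 were matched to current symbols by gene ID, and no other position was named. Values were log2-transformed and each array's median was subtracted. Probes of 1 gene were averaged. A gene or position was tested with at least 4 of 6 values in each pair.

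One linear model of 18 arrays (limma 3.58.1 in R 4.3.3) estimated, per gene, the levels of the hybrid and D. simulans pools relative to D. melanogaster plus a channel effect. Its moderated tests are two-sided, with Benjamini-Hochberg adjustment over all 4753 genes and positions and a threshold of 0.05. The fit was tested on simulated data. Genes were named as all 5 subunit genes, all tested other proteasome genes, the 5 ubiquitin system genes farthest from both parents, and the nearest named genes by root mean square difference with at least 16 shared arrays. Members and lists were chosen with earlier results of these data known. Arrays are numbered by deposition within a pair. Alternatives were other centring and scaling, other sets of arrays, other filters, a 1.5-fold minimum and each array left out. The separation by title number within 1 model, and the alternatives for genes of other lists, were added after the data were seen. Searches of promoter and protein sequence were not run, as no sequences were used here.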

Additional observations from a re-analysis of the deposited data

Results flagged for a closer look

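The first array of hybrid and D. melanogaster RNA lay apart from the other 5 for Rpn1, at a log2 ratio of -0.17 against values of -0.72 to -0.58. The third array of hybrid and D. simulans RNA lay apart for Rpt5, at 0.027 against -0.98 to -0.71. These are 2 of 15 groups of 6 arrays examined, and chance alone would flag about 1 in 20 groups. Without these arrays Rpn1 stood at -0.72 and Rpt5 at -0.79.

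The difference of Rpn6 between hybrid and D. melanogaster changed with the title numbers of the arrays. It was -0.65 on title numbers 1 to 8 and 0.21 on 14 to 18, and the difference between the sets was -0.85 ± 0.13 (SE; limma adjusted p = 0.000577). All 3 arrays of the first set were below 0 and all 3 of the second above it. What the title numbers mark is not given by the labels, and why Rpn6 moves with them was not tested.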

How the results depend on the processing

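The fitted values and calls of the 5 subunit genes were recomputed in 31 other settings, of which 18 left out 1 array each and 2 were added after the data were seen. Other filters, the fit without a channel term and the 1.5-fold minimum left the fitted values unchanged, so only calls could change there. The likeness of genes had 1 alternative, and the differences between title numbers had none. The values of Prosbeta7 and Rpt5 against D. melanogaster and of Rpn1 against D. simulans kept sign and call in all 31, from -0.94 to -0.75, -0.91 to -0.57 and -0.96 to -0.67. Rpn1 and Rpn2 against D. melanogaster, Rpn2 and Rpt5 against D. simulans, and Prosbeta7 between the parents kept both in 30, the exception being the 1.5-fold minimum. That minimum gave adjusted p of 0.418, 0.997, 0.204, 0.169 and 1 in that order, at unchanged values of -0.65, -0.57, -0.68, -0.71 and -0.64. Subunit genes called were then 2 against D. melanogaster, 1 against D. simulans (Prosbeta7 lost at -0.17), 0 between the parents and 0 below both parents, with 0 at an unadjusted p under 0.05 in limma's treat for both of the last. All genes called were 1970, 1819 and 205 instead of 3983, 3908 and 2223. The stricter threshold itself lowers these counts.

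Between the parents, Rpn1 was called with deposited medians (0.20) and common spread (0.25), which made 2 subunit genes, and Rpn6 (-0.42) on title numbers 1 to 8 and Rpt5 (-0.11) on 14 to 18 also made 2. Within 1 model of both sets Rpt5 was not called (adjusted p = 0.506). Rpn6 against D. melanogaster was called at -0.27 with deposited medians and -0.65 on title numbers 1 to 8. On 14 to 18 it was 0.21, called alone but not within 1 model (adjusted p = 0.0606), and 0.029 between the parents and 0.18 against D. simulans. Against D. simulans Rpn6 was 0.020 with common spread, 0.013 on direct arrays and -0.23 (adjusted p = 0.0147) on title numbers 1 to 8 within 1 model. Prosbeta7 against D. simulans was not called without a channel term (-0.17), on direct arrays (-0.19), on title numbers 1 to 8 (-0.19, alone and within 1 model), on 14 to 18 within 1 model (-0.20) and with common spread (0.11). With deposited medians it was called at -0.30, while the median of all genes moved to -0.10. The causes were not tested.

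With 1 array left out, values ran from 0.15 to 0.24 for Rpn1, 0.091 to 0.18 for Rpn2 and 1 to 3 subunit genes called between the parents. Uncalled values between the parents ran from -0.11 to -0.029 for Rpt5 (lowest without array 1 of that pair, highest without array 3 of hybrid and D. simulans) and from -0.20 to -0.092 for Rpn6 (highest without array 2 of that pair). Rpn6 against D. melanogaster, also uncalled, ran from -0.22 to -0.041 (highest without array 2 of that pair). Against D. simulans values ran from -0.21 to -0.14 for Prosbeta7 and -0.044 to 0.055 for Rpn6, and 3 to 4 genes were called. No paired analysis was possible because replicate numbers follow deposition order and pair nothing. Some arrays share a title number, within a pair or, for 16, across 2 pairs. With title number as a random block no call of a subunit gene changed (consensus correlation 0.16). The other lists were recomputed in the same settings as an addition. Ovo against D. melanogaster was 0.0072 with common spread, 0.013 on direct arrays and -0.042 to 0.058 with 1 array left out. It was -0.28 on title numbers 1 to 8, called alone and within 1 model, and 0.19 on 14 to 18, called alone only. Prosbeta4R2 between the parents was 0.74 on title numbers 1 to 8, called alone and within 1 model, and -0.054 on 14 to 18.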
